A study of Mus musculus with 6 samples.

Results

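The 10 genes described here are the cytosolic glutathione S-transferase genes with a Gst symbol and the highest control means among 690 genes that the authors of the series had selected as different between IL-22-treated and untreated intestinal enteroids of the mouse. They were chosen by symbol (Gst, a class letter and a digit) and by control mean: 11 of the 690 listed rows carried such a symbol, and the 10 with the highest mean in untreated enteroids were kept. Gm3776, a near copy of Gsta1 listed without a symbol, had a higher control mean than 9 of the 10 and was left out by the rule on symbols. The 10 are Gsta1, Gsta2 and Gsta3 of the alpha class, Gstm1, Gstm2, Gstm3, Gstm4, Gstm6 and Gstm7 of the mu class, and Gstt1 of the theta class. The last gene inside the limit was Gstm7, with 10.8 RPM with IL-22 and 24.8 RPM in controls, and the first outside was Gstk1 of the kappa class, with 5.23 RPM with IL-22 and 10.6 RPM in controls. RPM is the number of reads of a gene per 1000000 reads of a library. Because every listed gene had already been selected on the contrast of IL-22 with control, the changes given here are descriptions, and the authors' call, recomputed under other settings, is no independent test of them.

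Glutathione S-transferases join the tripeptide glutathione to reactive electrophiles, such as oxidised lipids, plant compounds and drug metabolites, which makes these more soluble and ready for export. The cytosolic enzymes work as dimers and fall into classes named by Greek letters, whose members often lie side by side in the genome. In the small intestine they are best known from absorptive enterocytes, and many are induced by the transcription factor NRF2 through antioxidant response elements.

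The labels place the work in a study of IL-22 and the newborn gut lining. Enteroids are small organoids grown from the crypts of the small intestine. The treated libraries came from 2 wells of 1 mouse treated with recombinant mouse IL-22 for 24 hours, and the controls were 4 untreated wells from 2 mice. All mice were C57BL/6J without necrotising enterocolitis, and all wells were differentiated for 4 days in a medium that held N-acetylcysteine, a source of cysteine for glutathione. The dose is 2 ng/ml by the labels and 100 ng by the header of the deposited table, and the age is 6 weeks by the characteristics but 8 weeks (adult) or 7 days (neonatal) by the protocol. Wells from the same mouse are labelled as technical replicates, and it is not stated whether the first mouse of each group was 1 animal. The spread between libraries is thus not the spread between animals, and every SEM, SE and p-value behind the calls counts wells as replicates. With treated wells from 1 mouse alone, a change with IL-22 cannot be told apart from a difference between mice.

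Depth was 32470000 and 29880000 reads in the IL-22 libraries, and in the control libraries 36580000, 35250000, 27420000 and 22650000. Values of single libraries were recovered from the deposited means and standard errors (SEM), and libraries are named here by depth because nothing ties a recovered value to a well. Both IL-22 values were recovered for all 10 genes. The 4 control values were recovered for 7 genes, and for Gsta1, Gstm1 and Gstm3, whose reads were too many for a single solution, the range that each control library can take is given. The table holds none of 9 general epithelial markers, so the tissue label was checked on absorptive enterocyte markers alone: 8 of 19 were listed, among them the brush border phosphatase Alpi at 111 RPM with IL-22 and 250 RPM in controls.

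All 10 genes were lower with IL-22. Together they came to 910 and 799.8 RPM in the deeper and the shallower IL-22 library and to 2412 RPM over the control means, 2.82 times lower with IL-22. Each change given here is a ratio of the means given in the authors' deposited table, with a standard error (SE) carried over from their SEMs. Over the whole table, 61.3% of genes were lower, and the selection of the list fixed that each member had changed, so the count of 10 of 10 describes the list and is no evidence of its own. The 10 genes were a median of 2.63 times lower (log2 -1.39), against 2.70 times (log2 -1.44) over the 423 listed lower genes. In bulk libraries, fewer cells of a type and less RNA per cell cannot be told apart.

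**Figure D1:**
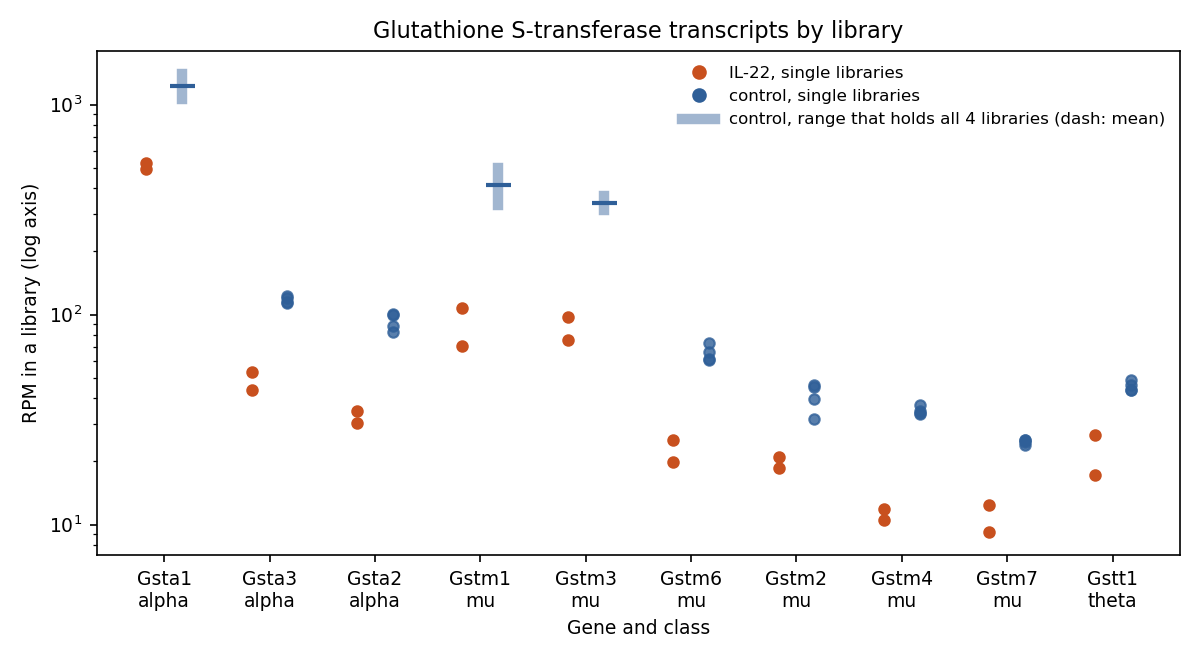
RPM (log axis) of the 10 Gst genes, grouped by class, in each IL-22 library (orange) and each control library (blue). Blue bars span all values that the control libraries of Gsta1, Gstm1 and Gstm3 can take, with the mean as a dash; for each of the 10 genes both IL-22 values lie below all control values.

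The alpha class enzymes are known for reducing lipid hydroperoxides as well as for conjugation. Gsta1 was the most abundant member, and ranked 5 of all 690 listed genes by control mean. It had 530 RPM (17207 reads) in the deeper IL-22 library and 494 RPM (14761 reads) in the shallower one, against an authors' mean of 1234 ± 57.2 RPM (SEM, n = 4) in controls, where no library can lie outside 1063 to 1405 RPM. The IL-22 libraries differed from each other by far less than from the controls, and the authors' mean with IL-22 was 2.41 times lower (log2 -1.27 ± 0.08, SE).

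The value of Gsta1 may not be that of 1 gene. Only 7.81% of the 31-base words of its transcript occur in no other gene of the GENCODE M21 annotation, and 87.8% occur in Gm3776, a gene model 1 place along the same cluster on chromosome 9. The coding sequences of the pair differ at 2 of 669 bases (99.7% identity). Gm3776 was itself listed, under its Entrez number and without a symbol, so the rule on symbols left it out. Its means were 478 ± 10.3 RPM with IL-22 (SEM, n = 2) and 1159 ± 50.4 RPM in controls (SEM, n = 4), 2.43 times lower. The ratio of Gsta1 to Gm3776 was 1.09 and 1.06 in the IL-22 libraries and 1.06 between the control means. The title deposited with the row of Gsta1 also names an Ensembl gene that GENCODE M21 calls Gm10639, a further neighbour in the cluster. How the authors' counting treated reads shared by these genes is not given, and their sums may count reads more than once.

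The 250 bases before the RefSeq start of both genes (build GRCm38.p6) are shown because the likeness extends beyond the coding sequence. Capitals mark the only match to the letters TTCNNNGAA, the palindromic core that STAT factors bind, searched on both strands in windows of 250 bases before to 50 after the start. In an alignment of the 300-base windows, 284 bases were identical, 3 were mismatched and 26 were gaps.
Gsta1 chr9:78230419-78230668 (plus strand): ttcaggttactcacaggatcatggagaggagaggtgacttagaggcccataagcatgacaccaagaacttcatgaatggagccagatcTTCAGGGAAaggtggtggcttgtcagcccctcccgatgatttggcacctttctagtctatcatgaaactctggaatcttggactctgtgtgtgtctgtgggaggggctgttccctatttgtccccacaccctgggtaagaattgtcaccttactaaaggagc
Gm3776 chr9:78256879-78257128 (plus strand): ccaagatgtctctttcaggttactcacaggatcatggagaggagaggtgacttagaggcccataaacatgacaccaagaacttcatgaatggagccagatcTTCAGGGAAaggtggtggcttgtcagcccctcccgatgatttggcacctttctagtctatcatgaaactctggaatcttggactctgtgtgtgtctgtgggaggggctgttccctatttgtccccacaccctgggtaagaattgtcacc
The match began at base -162 in Gsta1 and at base -149 in Gm3776, counted from the start, and read TTCAGGGAA in both.

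Gsta3, known in the mouse for conjugating the epoxide of aflatoxin, had 43.9 RPM in the deeper and 53.3 RPM in the shallower IL-22 library, against 115, 120, 123 and 113 RPM in the control libraries by falling depth. The highest control was 1.09-fold the lowest, and the IL-22 mean was 2.43 times lower (log2 -1.28 ± 0.14). Gsta3 was the only member with the lower IL-22 value in the deeper library. It lies on chromosome 1, apart from the other alpha genes, shares 74.2% of its coding bases with Gsta1, and 98.9% of its 31-base words occur in no other gene.

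Gsta2 had 34.8 and 30.4 RPM in the deeper and the shallower IL-22 library, against 99.4, 88.0, 100.5 and 82.7 RPM in the control libraries by falling depth. It was 2.84 times lower (log2 -1.51 ± 0.12), the largest change of the alpha genes by mean. Its coding sequence is 97.6% identical to that of Gsta1, with 24.4% of its 31-base words in no other gene and 56.4% shared with Gm10639, so its reads too may belong in part to its neighbours.

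Gsta3 was 1 of 2 members whose promoter windows held the letters TGACNNNGC, the core of an antioxidant response element, and its 250 bases are shown beside those of Gstm1, the member with the largest change, which held neither motif in either of its windows. Capitals mark the match, TGACATTGC at base -121 of Gsta3.
Gsta3 chr1:21240335-21240584 (plus strand): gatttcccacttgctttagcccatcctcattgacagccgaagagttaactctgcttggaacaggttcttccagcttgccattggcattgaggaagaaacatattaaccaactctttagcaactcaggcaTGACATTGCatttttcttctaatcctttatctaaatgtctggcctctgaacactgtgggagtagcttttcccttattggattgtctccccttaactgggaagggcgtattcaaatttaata
Gstm1 chr3:108017974-108018223 (minus strand): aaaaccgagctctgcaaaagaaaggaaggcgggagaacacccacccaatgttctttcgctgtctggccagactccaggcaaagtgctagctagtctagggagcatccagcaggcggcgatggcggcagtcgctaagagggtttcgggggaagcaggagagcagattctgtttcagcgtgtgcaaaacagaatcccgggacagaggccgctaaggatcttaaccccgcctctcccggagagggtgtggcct
The other match was TGACAAAGC at base -129 of an alternative start of Gstm7. TGACNNNGC was thus in 2 of the 15 windows of the 10 genes (13.3%), against 12.4% of all 32851 mouse promoter windows in RefSeq. TTCNNNGAA was also in 2 of the 15 windows, those of Gsta1 and of an alternative start of Gstm6 (base -128), against 8.30% of all windows. A match is a run of letters and does not show that a factor binds there.

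The mu class genes lie in 1 cluster on chromosome 3, in the order Gstm5, Gstm7, Gstm6, Gstm3, Gstm2, Gstm1 and Gstm4, and 6 of the 7 were listed; Gstm5 was not analysed here. The 6 summed to 275 and 205 RPM in the deeper and the shallower IL-22 library and to 922 RPM over the control means, 3.85 times lower, whereas the 3 alpha genes summed to 593 and 1444 RPM over the IL-22 and control means, 2.43 times lower. Of the reads of the 10 genes, the mu class held 28.0% with IL-22 and 38.2% in controls, and the alpha class 69.4% with IL-22 and 59.9% in controls. Of the alpha sums, Gsta1 alone made up 512 RPM with IL-22 and 1234 RPM in controls, and Gm3776 was not counted. The difference between the classes was not tested. Without Gstm1 and Gstm3, set apart after their values were seen, the other 4 mu genes summed to 64.3 RPM over the IL-22 means and 166 RPM over the control means, 2.58 times lower.

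Gstm1, which in mice is abundant in liver and conjugates a broad range of electrophiles, had 107 RPM in the deeper and 70.9 RPM in the shallower IL-22 library, against an authors' mean of 416 ± 28.9 RPM (SEM, n = 4) in controls, where a library can take 334 to 501 RPM. It showed the largest change of the 10, 4.67 times lower (log2 -2.22 ± 0.31), and 15.1% of the listed lower genes changed more. The IL-22 libraries differed 1.51-fold from each other. Gstm3 had 97.2 and 75.8 RPM in the deeper and the shallower IL-22 library, against 341 ± 8.71 RPM (SEM, n = 4) in controls, with 316 to 367 RPM possible in a library. It was 3.94 times lower (log2 -1.98 ± 0.18). These 2 genes are also the closest pair of the class, with 89.4% of coding bases identical, and 65.7% and 62.3% of their 31-base words occur in no other gene. Gstm1 shares 26.9% of them with the processed pseudogene Gstm2-ps1, and Gstm3 shares 24.7% with the processed pseudogene Gm8834. Words shared by the 2 genes make up 15.5% of those of Gstm1 and 15.2% of those of Gstm3, so their values may in part count the same reads.

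Gstm6 had 25.3 and 19.7 RPM in the deeper and the shallower IL-22 library, against 61.2, 60.7, 73.4 and 66.2 RPM in the control libraries by falling depth, 2.91 times lower (log2 -1.54 ± 0.19). Gstm4 had 11.8 and 10.5 RPM in the same IL-22 libraries, against 33.7, 34.8, 37.2 and 34.0 RPM in the controls, 3.12 times lower (log2 -1.64 ± 0.09). Gstm7 had 12.4 and 9.17 RPM in the same IL-22 libraries, against 24.7, 25.3, 25.3 and 23.9 RPM in the controls, 2.30 times lower (log2 -1.20 ± 0.21). For Gstm4 and Gstm7 the controls were tightly grouped (coefficient of variation 4.53% and 2.72%), and at least 96.6% of the 31-base words of both occur in no other gene.

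Gstm2 changed least, 2.05 times lower (log2 -1.04 ± 0.15). It had 21.04 and 18.6 RPM in the deeper and the shallower IL-22 library, against 31.7, 39.7, 45.2 and 46.3 RPM in the control libraries by falling depth. Its controls spread most of the 10 genes (coefficient of variation 16.4%), and the lowest of them still exceeded the higher IL-22 value. Gstm2 lost the call (2-fold and an adjusted p under 0.05) without each of 4 libraries in turn. Its log2 change fell under 2-fold without the shallower IL-22 library (-0.95) and without the third (-0.98) and the shallowest (-0.97) control library by depth. Without the deeper IL-22 library it was -1.13, still past 2-fold. There the call was lost on the adjusted p, with the lone IL-22 library given the spread of the controls. Along the cluster, the change did not follow position, since Gstm2 at 2.05 times stood between Gstm3 at 3.94 and Gstm1 at 4.67.

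Gstt1, the theta class enzyme known for acting on small halogenated compounds, had 26.6 and 17.2 RPM in the deeper and the shallower IL-22 library, against 49.0, 43.9, 46.3 and 43.7 RPM in the control libraries by falling depth. It was 2.08 times lower (log2 -1.06 ± 0.31), with IL-22 libraries that differed 1.55-fold, the widest gap of the 10 genes. Without the shallower IL-22 library its log2 change was -0.78 and the call was lost. Of its 31-base words, 99.3% occur in no other gene.

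**Figure D2:**
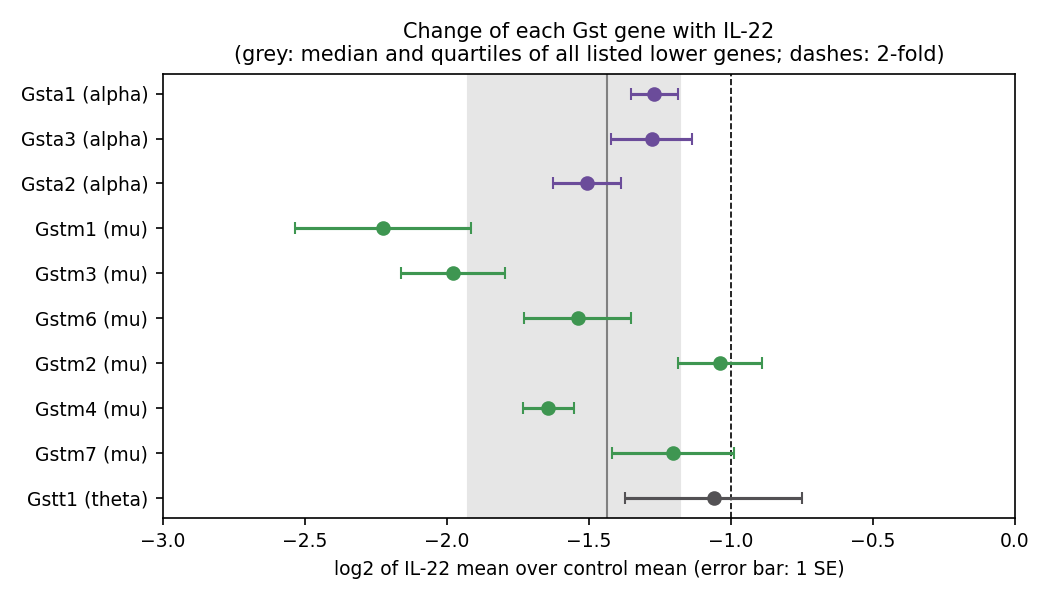
log2 ratio of the group means, IL-22 over control, with 1 SE from the deposited SEMs, for the 10 genes by class (alpha, mu, theta from the top). The grey band spans the quartiles (log2 -1.93 to -1.18) and the grey line the median of the 423 listed lower genes, and the dashed line marks 2-fold; Gstm1 and Gstm3 lie below the band, and Gstm2 and Gstt1 above it.

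Members of a class resembled one another in sequence to different extents. Coding identity ran from 74.2% to 97.6% over the 3 alpha pairs and from 79.1% to 89.4% over the 15 mu pairs, and from 48.0% to 52.2% between classes.

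**Figure D3:**
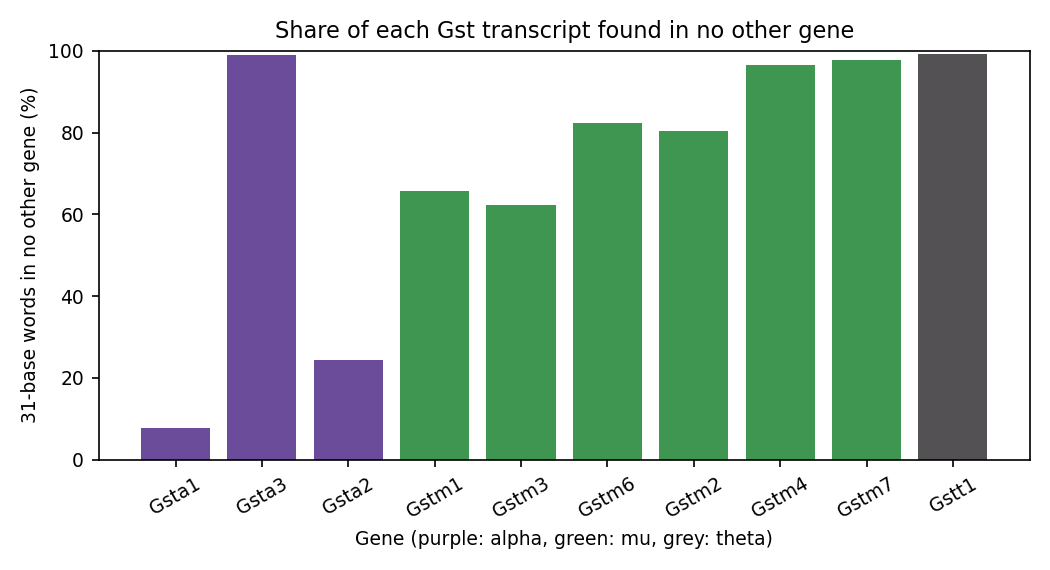
Percent of the 31-base words of each gene's principal transcript that occur in no other gene of GENCODE M21, by class. Gsta1 (7.81%) and Gsta2 (24.4%) stand far below the other 8 genes, which run from 62.3% to 99.3%.

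Levels of different genes were compared as RPM per kilobase of transcript. With IL-22 the order was Gsta1 (585), Gstm1 (69.0), Gstm3 (66.0), Gsta2 (37.5), Gsta3 (33.4), Gstt1 (21.2), Gstm6 (19.5), Gstm2 (18.6), Gstm7 (7.81) and Gstm4 (6.55). In controls it was Gsta1 (1410), Gstm1 (322), Gstm3 (260), Gsta2 (107), Gsta3 (81.0), Gstm6 (56.7), Gstt1 (44.1), Gstm2 (38.3), Gstm4 (20.5) and Gstm7 (18.0). Library ranges of neighbours overlapped with IL-22 for Gstm1 and Gstm3, Gsta2 and Gsta3, Gstt1 and Gstm6, Gstm6 and Gstm2, and Gstm7 and Gstm4. In controls they overlapped for Gstt1 and Gstm2 and, within the ranges they can take, for Gstm1 and Gstm3.

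In 9 of 10 genes the deeper IL-22 library was the higher, with ratios of the deeper to the shallower library from 0.824 (Gsta3) to 1.55 (Gstt1) and a median of 1.21. Of the 423 listed lower genes, 60.05% were higher in the deeper library, with a median ratio of 1.07. Among the 7 genes with recovered control values, the third control library by depth was the highest in 4 and the shallowest was the lowest in 4, and the highest library was 1.06-fold (Gstm7) to 1.46-fold (Gstm2) the lowest.

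**Figure D4:**
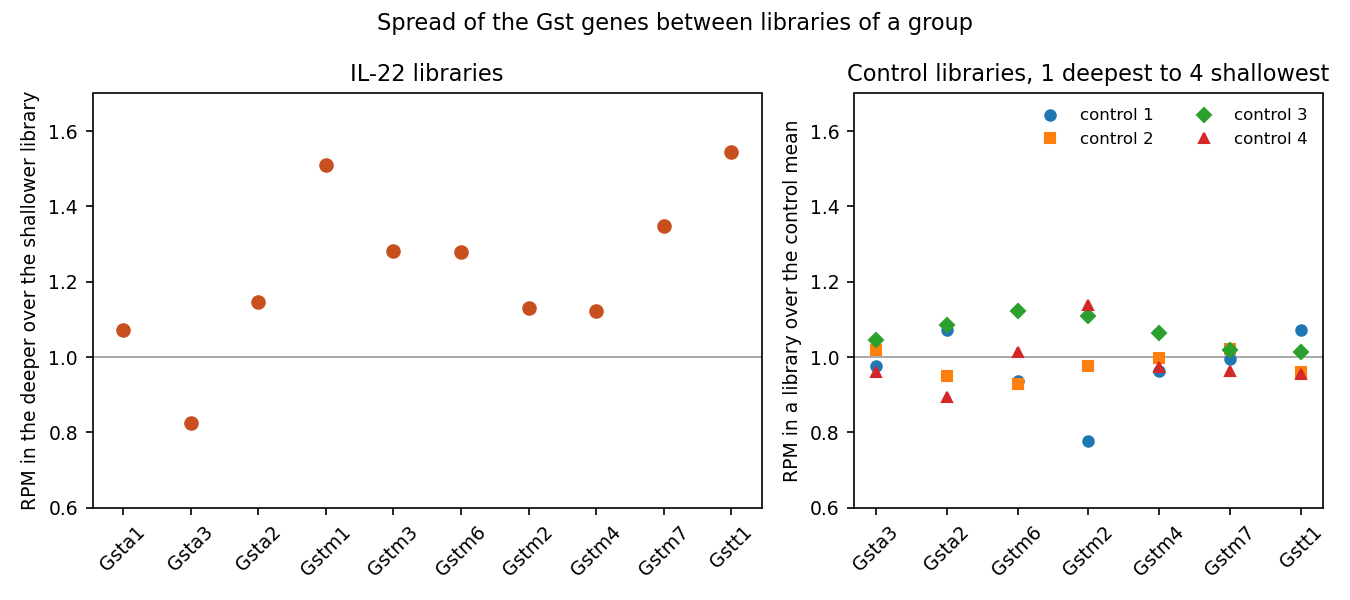
Left, RPM in the deeper over the shallower IL-22 library for the 10 genes, with 9 above 1. Right, RPM in each of the 4 control libraries over the control mean for the 7 genes with recovered values; Gstm2 has the widest spread, 0.778 to 1.14.

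Counts of called members moved with the call. Adjusted over all 21951 protein-coding genes, with each unlisted gene given the largest p, at least 4 of the 10 genes passed (Gsta3, Gstm3, Gstm4 and Gstm7), and 7.97% of listed genes passed and were lower. At 4-fold, Gstm1 alone passed, and 13.8% of listed genes were that much lower. With unequal variances 8 passed, Gstt1 and Gstm7 being lost, and 53.3% of listed genes passed and were lower. These comparisons reuse the contrast that selected the list, and their p-values count wells and not mice.

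The genes around the transferases were read from lists that run from glutathione supply to export. RefSeq holds 22 protein-coding mouse genes with such a symbol, of which the 11 not listed include both omega, all 3 pi and the zeta gene, and 3 of the 4 theta genes; these were not analysed here. Of 32 genes of glutathione supply and use, 3 were listed, and 2 of them were higher with IL-22. Gsr, which reduces oxidised glutathione, had 692 and 743 RPM in the deeper and the shallower IL-22 library, against a mean of 288 RPM in controls (log2 1.32 ± 0.10). Gpx2, the glutathione peroxidase of the gut epithelium, had 1441 and 877 RPM in the same IL-22 libraries, against 370 RPM in controls (log2 1.65 ± 0.37). Dpep1, a dipeptidase that degrades glutathione conjugates, was lower, with 19.0 and 50.4 RPM as IL-22 and control means. With the wider adjustment over every protein-coding gene, Gsr was the 1 of these 3 that passed. None of the 6 membrane-bound transferases was listed.

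Of 25 NRF2 regulators and targets other than Gst genes, 4 were listed, each of them lower with IL-22, as were 61.3% of all listed genes. Gsr and Gpx2, both higher, were counted under glutathione supply and use alone, so the shared direction depends on how the lists were drawn. The quinone reductase Nqo1 averaged 54.9 RPM with IL-22 and 126 RPM in controls, and the epoxide hydrolase Ephx1 66.6 RPM with IL-22 and 195 RPM in controls. The carbonyl reductase Cbr3 averaged 13.0 RPM with IL-22 and 38.8 RPM in controls, and the malic enzyme Me1 20.4 RPM with IL-22 and 46.4 RPM in controls. With the wider adjustment, Cbr3 was the 1 of these 4 that passed. NRF2 itself (Nfe2l2) and its inhibitor Keap1 were not listed. Of 10 xenobiotic receptors and partners, Ppara alone was listed, at 43.4 RPM with IL-22 and 92.1 RPM in controls, of which the shallowest library stood below the others at 85.7 RPM. Of 7 genes of conjugate export, Abcc2, the apical pump for glutathione conjugates, alone was listed, at 127 RPM with IL-22 and 269 RPM in controls. Ppara and Abcc2 passed with the wider adjustment.

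Cell type markers also changed, not all in the direction of the members, and their part in the result was not tested. All 8 listed enterocyte markers of 19 were lower with IL-22, as were 61.3% of all listed genes. These 8 summed to 1169 and 937 RPM in the deeper and the shallower IL-22 library, against 2808 RPM over the control means. Among them Fabp2, an intestinal fatty acid-binding protein, averaged 310 RPM with IL-22 and 841 RPM in controls. With the wider adjustment of the authors' pooled-variance p, 0 of the 8 passed. That all 8 had an unadjusted p under 0.05 was fixed by the selection of the list, whose largest pooled-variance p was 0.0239. Both listed Paneth markers of 7 (Mmp7 and Pla2g2a) were higher, with sums of 229 and 278 RPM in the IL-22 libraries and 45.2 RPM in controls. The listed goblet markers (2 of 9) were lower, with a sum of 13.0 RPM with IL-22 and 30.6 RPM in controls. Klk1 made up most of it, at 11.6 RPM with IL-22 and 25.4 RPM in controls, and Bcas1 had 1.45 and 5.24 RPM. The other 7, Muc2 and Tff3 among them, were not listed. The listed tuft markers (3 of 6) were also lower, with a sum of 7.17 RPM with IL-22 and 16.7 RPM in controls. All were low, Pou2f3 at 3.62 RPM with IL-22 and 9.13 RPM in controls, Trpm5 at 2.78 and 5.62 RPM, and Ptgs1 at 0.769 and 1.91 RPM. Olfm4 was the only listed one of 7 stem and proliferation markers, at 1525 RPM with IL-22 and 3703 RPM in controls. With the wider adjustment both Paneth markers and both goblet markers passed, and none of the 3 tuft markers nor Olfm4 did. No marker of enteroendocrine, blood, mesenchymal, endothelial or nerve cells was listed, and markers outside the list were not analysed here.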

How the data were processed

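Gene expression was measured by single-read RNA-seq of oligo-dT-purified RNA (15 PCR cycles, per the labels' protocols) in 2 IL-22 and 4 control libraries, grouped by the treatment label. Tools named in the submitters' processing notes are BWA 0.5.9 and Picard 1.58. Not given in the sources used here are the build, the annotation, the counting program and the use of strand; without strand, a gene and its antisense partner cannot be told apart. The deposited table holds, for 690 genes that the authors selected, group means in RPM with their SEM, mean raw read counts, the ratio (fold) of the IL-22 to the control mean, p-values and adjusted p-values. The RPM unit was inferred from the values deposited by the authors, since no header names it. The deposited p-values were recomputed (pooled variance, 4 degrees of freedom, two-sided) from the means and SEMs to a largest difference of 1.07e-06, and the deposited adjusted p-values are Benjamini-Hochberg values over the 690 genes alone. The smallest change in the table was 2-fold, the largest p-value 0.0239, and the smallest mean in a gene's higher group 20 reads.

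Library depths were solved from rows with few reads. Both IL-22 values follow from mean and SEM, and came within 0.01 of a whole read in 593 of 593 genes with under 2000 mean reads. Control values were searched as whole reads that give the deposited mean, SEM and mean read count to 6 digits, in 628 genes with at most 20000 summed control reads; 591 had 1 solution, 36 several and 1 none. On a simulated table of 690 genes with known reads, 610 had 1 solution and 610 of these were right. A gene also counted as right when its values matched in another order of libraries. SEs of log2 changes were propagated from the SEMs. In the control libraries 3 reads were worth 0.0820 to 0.132 RPM.

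Names were matched by Entrez number to RefSeq, whose promoters (GRCm38.p6) were searched for motifs with Python 3.11.15 and Biopython 1.88. Transcript lengths and sequences are those of the principal (APPRIS) transcript in GENCODE M21, the longest where several tied. All 10 members, the Gst row just outside the limit and up to 6 listed genes of each fixed list by control mean were the genes to be named. Members and lists were chosen with earlier results of these data known. The alternatives tried were the family of the p adjustment, a 4-fold threshold, unequal variances, the log2 scale, added RPM, a filter of 100 reads, leaving out each library, and summed reads.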

Additional observations from a re-analysis of the deposited data

Results flagged for a closer look

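Of 22 genes checked for a control library that stood apart, 1 was found. Chance finds about 1 in 20, so this is near what chance alone gives. Ppara, a lipid-sensing nuclear receptor, had 85.7 RPM in the shallowest control library, against 94.6, 94.2 and 94.1 RPM in the others by falling depth, so that the gap to the nearest was 0.948 of the whole range. None of the 7 Gst genes with recovered control values was found in this way.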

How the results depend on the processing

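The direction of the members could not turn under these alternatives, since each IL-22 value lay below each control value, so only calls and sizes could change. The count of the 10 Gst genes that passed the call stood at 10 on the log2 scale and with 1 RPM added. A filter of 100 reads also left 10, but could remove none, since the lowest control mean among them was 757 reads (Gstm7). The count was 8 with unequal variances, 7 with 5 RPM added (Gstt1, Gstm2 and Gstm7 lost) and 9 from summed reads (Gstm2 lost). It was 4 when adjusted over all protein-coding genes, which enlarges the family, and 1 at 4-fold. Leaving out each library in turn gave 8 to 10. Of the 690 listed genes, 149 passed when adjusted over all protein-coding genes (55 lower, 94 higher) and 186 at 4-fold. With unequal variances 490 passed (368 lower, 122 higher). On the log2 scale 676 passed, from summed reads 683, and with a filter of 100 reads 462. With 1 RPM added 431 passed, and with 5 RPM added, which shrinks the fold of low genes, 224. Leaving out each control library in turn gave 623 to 662. Fewer passed without either IL-22 library than without any control library, but those calls rest on a lone IL-22 library and are not counted here. For Gsta1, Gstm1 and Gstm3 the fits without a control library used the worst case that the SEM allows, and a lone IL-22 library was given the spread of the controls. The fewest reads behind an IL-22 value of a member were 274, for Gstm7 in the shallower of the pair. No paired analysis was possible because the recovered values carry no well or mouse number.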
